A study of Homo sapiens with 3 samples.

Results

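The genes described here are the NF-kB subunits NFKB1, NFKB2, REL, RELA and RELB, the feedback inhibitors NFKBIA, NFKBIE and TNFAIP3, the IkB-family protein gene BCL3, and TNFAIP2, which was named for its induction by tumour necrosis factor and is not an established inhibitor. They were chosen by name, through every probe set on the array whose annotation gives that gene as its single symbol. Of the 10 genes 9 had such a probe set, out of 19775 genes on the array, and these 9 had 19 probe sets between them. Both probe sets listed for BCL3 also list another gene, so BCL3 was not analysed here.

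The study compared 3 cultures of a human colorectal cancer line on Affymetrix expression arrays, with 1 array per culture. The control cells were infected with an empty-vector virus. The LATS2 cells carried a virus with full-length LATS2, a kinase of the Hippo pathway, and the LATS2N cells carried a virus with residues 1 to 625 of LATS2, a stretch without the kinase domain. Each construct is labelled as overexpressed, all cells grew in medium with 10% serum, and no inflammatory stimulus is named. The labels of all 3 arrays give the line as SW620, while the design text of the series gives SW480 and calls the expression stable.

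NF-kB factors are dimers of the subunits and are held inactive in the cytoplasm by IkB proteins, such as those made from NFKBIA and NFKBIE. A kinase complex activated by tumour necrosis factor or interleukin-1 marks IkB for degradation, and the freed dimers enter the nucleus and switch on their targets. Among those targets are NFKBIA, NFKBIE, TNFAIP3, RELB, NFKB1, NFKB2 and REL themselves, so that inhibitors and some subunits are made in response to the pathway's own activity. RELA is the main activating subunit and is mostly controlled at the protein level.

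All values are probe set signals scaled by the authors to a common level on each array, where the mean without the lowest and highest 2% of values was 500.1 on all 3. With 1 array per group there is no spread between replicates and no test or p-value, so the differences below compare these 3 arrays, and the number of arrays limits their precision. Signals under the median of all signals, 50.5, were set to that floor before a log2 ratio was taken, and a gene was called higher or lower at 2-fold. The spread between probe sets of 1 gene on the same pair of arrays gave a second yardstick. For LATS2 against control its robust SD was 0.34 log2 units for genes whose dimmer signal was 100 to 200, 0.27 for those at 200 to 500 and 0.18 for those at 500 to 2000. A ratio of at least 2 such SDs is called beyond the probe set spread. That spread leaves out differences between cultures. The rule was chosen after the values were seen, and the genes with earlier results of these data known. Counts under it, set beside a background, are therefore a description and not support.

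The labelled cell type was checked on epithelial markers. EPCAM read 16608, 18744 and 18756 on the control, LATS2 and LATS2N arrays. Of 12 such markers, 9 to 11 were at or above the floor. CDX1 and CEACAM5 were under it on the control and LATS2 arrays, and LGALS4 on the control and LATS2N arrays. CDH1 read 4421, 2792 and 3567 and VIL1 5013, 3948 and 4666 on the control, LATS2 and LATS2N arrays, both lowest on LATS2. EPCAM, KRT8 and KRT18 were instead lowest on control. The summed signal of the 12 was 124877 to 132440, most of it from KRT8, KRT18, KRT19 and EPCAM. The leukocyte list, which could bring NF-kB genes of its own, summed to 289.8 to 311.2 over 5 measured markers, with the pan-leukocyte marker PTPRC between 15.7 and 19.7, under the floor on every array, as was CD3E. LYZ was above the floor on all 3 arrays, at 112, 107.0 and 138, and CD14 and ITGAM on 2 arrays each, at up to 93.2 and 65.3. The fibroblast and smooth muscle list summed to 465.5, 743.1 and 822.5 over 6 markers on the control, LATS2 and LATS2N arrays, most of it COL1A1, with COL1A2, COL3A1 and PDGFRB under the floor on all 3. ACTA2 read 46.7, 103 and 100.02, so that LATS2 exceeded control by at least 2.04-fold. The 4 endothelial markers summed to 205.6, 116.2 and 136.3, and VWF, CDH5 and KDR were under the floor throughout. The inhibitors below are lowest on LATS2 and highest on LATS2N. LYZ had that order too, as did the fibroblast marker DCN, at 57.3, 23.5 and 62.6 on the control, LATS2 and LATS2N arrays. The epithelial markers KRT19, at 24940.9, 23811.6 and 25697.5, and CDX1, at 34.1, 28.2 and 54.95, had it as well. CD14, ITGAM and the list sums had other orders. The part of other cell types in the results was not tested. In bulk RNA, fewer cells of a type and less RNA per cell cannot be told apart. The 2 LATS2 probe sets above the floor read 205.7, 219.2 and 219.1, and 385.2, 377.1 and 409.2, on the control, LATS2 and LATS2N arrays. Neither shows a clear rise with the labelled overexpression. They may lie outside the cloned sequence, which was not looked up, so whether they read the constructs is not known.

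The promoter sequences of these genes are shown because several are textbook targets of the factors they encode. They were taken from RefSeq on GRCh38.p14, as the 250 bases before each annotated start, which was given for 8 of the 10 genes in 12 windows. RELB and NFKBIE were not among them. The kB consensus was searched on both strands, and matches may overlap each other. Matches are in capitals in the sequences below, which run 5′ to 3′ on the strand of the gene.

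NFKBIA and TNFAIP3, inhibitors with matches close to the start, and TNFAIP2, the gene with the lowest ratio between the construct arrays by its brightest probe set and with no match in its window, are shown whole.
NFKBIA, chr14:35404750-35404999, minus strand: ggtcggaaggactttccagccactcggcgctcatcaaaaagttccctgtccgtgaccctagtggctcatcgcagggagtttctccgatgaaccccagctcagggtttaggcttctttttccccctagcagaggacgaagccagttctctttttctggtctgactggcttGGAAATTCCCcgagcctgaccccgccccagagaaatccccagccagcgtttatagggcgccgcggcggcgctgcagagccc
TNFAIP3, chr6:137867009-137867258, plus strand: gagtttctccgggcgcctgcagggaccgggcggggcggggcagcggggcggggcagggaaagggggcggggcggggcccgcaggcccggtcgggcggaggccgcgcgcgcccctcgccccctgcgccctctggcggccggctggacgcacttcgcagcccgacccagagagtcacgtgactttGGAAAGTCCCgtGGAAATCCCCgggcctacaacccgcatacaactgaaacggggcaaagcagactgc
TNFAIP2, chr14:103123211-103123460, plus strand: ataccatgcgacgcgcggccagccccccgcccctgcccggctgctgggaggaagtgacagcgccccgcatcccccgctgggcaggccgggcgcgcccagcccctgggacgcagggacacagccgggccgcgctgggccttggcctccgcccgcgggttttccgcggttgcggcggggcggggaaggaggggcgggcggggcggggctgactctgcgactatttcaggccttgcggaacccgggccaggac

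The stretches around the matches are shown for 3 subunit genes that carry them.
NFKB1, chr4:102501285-102501344, plus strand: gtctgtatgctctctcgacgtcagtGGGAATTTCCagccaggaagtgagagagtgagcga
NFKB2, chr10:102394446-102394534, plus strand: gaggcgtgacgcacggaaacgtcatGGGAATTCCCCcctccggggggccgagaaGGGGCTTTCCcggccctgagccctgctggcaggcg
REL, chr2:60881502-60881562, plus strand: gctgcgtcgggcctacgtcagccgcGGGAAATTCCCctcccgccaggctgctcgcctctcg

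A match to the consensus lay in a window of 5 of the 8 genes (62.5%), NFKB1, NFKB2, REL, NFKBIA and TNFAIP3. The 8 include BCL3. The share was 6.28% of all 27305 genes with a promoter window and 7.61% of those on the arrays. In the pathway lists described below it was 53.6% for other NF-kB targets, 37.5% for other inhibitors and 10.3% for upstream genes. Such matches are thus not particular to these genes. The capitals of TNFAIP3 hold 2 separate matches that begin 67 and 55 bases before the start, and that of NFKBIA begins 81 bases before it. NFKB2 had matches in 2 of its 3 windows, and the first match of the stretch shown reads as the consensus on both strands. For RELA, BCL3 and TNFAIP2 a match is not in these windows, which says nothing about whether NF-kB acts on them. A match to letters is a description and not a binding site.

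With full-length LATS2, transcripts of 8 of the 9 measured genes read below control. The median log2 ratio over the 9 was -0.49, against 0.03 over all 13186 genes that reached the floor, of which 45.2% were below 0. Only TNFAIP2 was called lower at 2-fold, where 0.842% of all genes were, and at 1.5-fold RELB and TNFAIP3 joined it, where 4.41% of all genes were lower. Beyond the probe set spread, REL, RELB, TNFAIP3 and TNFAIP2 were lower and none was higher, 4 of 9 genes where the background was 5.57% lower. In either direction, the shares of all genes were 1.80% at 2-fold, 10.3% at 1.5-fold and 13.9% beyond the spread.

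On the LATS2N array, by their brightest probe sets, all 5 subunit genes read lower than control, and the 3 inhibitor genes and TNFAIP2 all read higher. A dimmer probe set each for NFKB2 (0.26) and REL (0.49) read above control, within the 0.12 to 0.51 of the inhibitors and TNFAIP2, and the difference between the roles was not tested. The median over the subunits was -0.23 and over the other 4 genes 0.38, against 0.02 over all genes, of which 46.4% were below 0 and 53.6% above. No gene was called at 2-fold or at 1.5-fold, where 1.51% and 8.13% of all genes were called in either direction. Beyond the probe set spread, REL was lower, where the background was 5.83%, and TNFAIP3 and TNFAIP2 were higher, where it was 7.70%. Both constructs are set against the same control array, so the control reading enters both ratios.

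Setting LATS2 against LATS2N leaves the control array out. There 7 of the 9 genes were below 0, where 47.7% of all genes were. TNFAIP3 and TNFAIP2 were called lower at 2-fold, where 1.00% of all genes were, NFKBIE passed 1.5-fold with them, where 5.07% did, and no gene was called higher. Beyond the probe set spread, RELB, NFKBIA, NFKBIE, TNFAIP3 and TNFAIP2 were lower, 5 of 9 genes against a background of 6.63%. In either direction, the shares of all genes were 1.59% at 2-fold, 9.34% at 1.5-fold and 14.3% beyond the spread. The median was -0.95 over the inhibitors and TNFAIP2 and -0.11 over the subunits, with 0.01 over all genes. With the median over all probe sets of a gene in place of its brightest one, neither 2-fold call remained. The ratios of TNFAIP3 and TNFAIP2 were then -0.87 and -0.81. For TNFAIP2 this rests on the floor: its second probe set read 1.85 on LATS2 and 52.1 on LATS2N. It gave -0.04 after the LATS2 value was set to the floor.

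**Figure D1:**
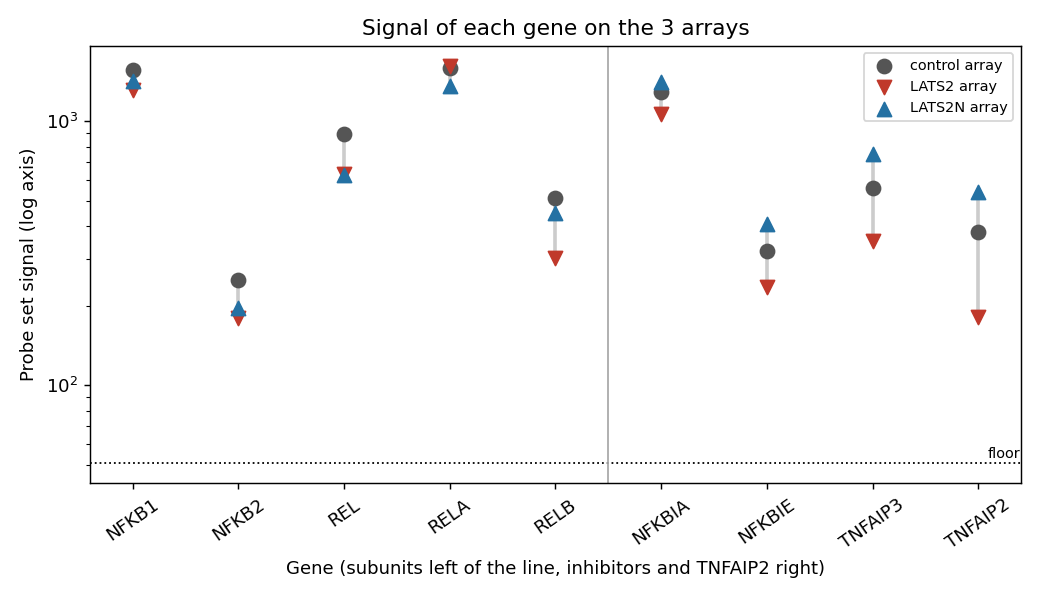
Probe set signal (log axis) of the 9 genes on the control, LATS2 and LATS2N arrays, with the 5 subunits left of the line, the 3 inhibitors and TNFAIP2 right of it, and the floor of 50.5 dotted. Only the brightest probe set of each gene is plotted. By these, the LATS2 array is lowest and the LATS2N array highest for all 4 genes on the right. For no subunit is the LATS2N array highest in the plot. A dimmer probe set each for NFKB2 and REL, not plotted, was highest on the LATS2N array. Heights of different genes come from different probe sets and are not comparable.

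Among the activating subunits, RELA, which carries a transactivation domain and pairs with the p50 product of NFKB1, read 1596, 1625 and 1364 on the control, LATS2 and LATS2N arrays. The control and LATS2 arrays were level, with a log2 ratio of 0.03, and the LATS2N array was lowest at -0.23 against control. Neither ratio was beyond the probe set spread. A dimmer RELA probe set read 338.0, 255.4 and 251.1 and put the LATS2 array below control by -0.40, so the median over both probe sets was -0.19 and the sign of RELA on the LATS2 array depends on the probe set.

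REL, which encodes c-Rel, another activating subunit best known from lymphocytes, had 5 probe sets, of which 4 were above the floor on all arrays. The brightest read 894.4, 632.9 and 625.9 on the control, LATS2 and LATS2N arrays. Both construct arrays were below control, by log2 ratios of -0.50 and -0.51 that were 2.70 and 3.32 times the probe set spread, and they were level with each other at 0.02. A further probe set read 794.2, 592.5 and 658.2, and another 400.6, 265.3 and 308.9, with the control again highest. The dimmest of the 4 went another way: it read 121.6, 51.3 and 170.7 on the control, LATS2 and LATS2N arrays, a log2 ratio of -1.73 between the construct arrays. Which part of the REL transcript this probe set reads is not known here. The sign of the ratio between the construct arrays was negative under quantile normalization (-0.03) and with the median over probe sets (-0.19).

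RELB, the partner of the p52 product of NFKB2 in the non-canonical pathway, read 514.3, 304.3 and 449.6 on the control, LATS2 and LATS2N arrays through its only probe set. The LATS2 array stood apart below the others. Its log2 ratio was -0.76 against control, a 1.69-fold difference and the lowest of the subunits by their brightest probe sets, and 2.11% of 1514 genes of like signal were as low. The LATS2N array differed from control by -0.19, less than the probe set spread. Between the construct arrays the ratio was -0.56.

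NFKB1, which encodes the p105 precursor of p50 and is itself an IkB-like inhibitor before processing, read 1563, 1313 and 1418 on the control, LATS2 and LATS2N arrays. The construct arrays were below control by -0.25 and -0.14, and neither these nor the -0.11 between them was beyond the probe set spread. NFKB2, which encodes the p100 precursor of p52, read 251.4, 179.6 and 195.7 on its brightest probe set, with log2 ratios of -0.49 and -0.36 that were likewise not beyond it. A dimmer NFKB2 probe set read 176.9, 126.6 and 211.7. Both NFKB2 probe sets put the LATS2 array lowest, at -0.48 and -0.49 against control, but the dimmer one put the LATS2N array above control by 0.26. All subunits read below control on the LATS2N array by their brightest probe set, and 8 of their 10 probe sets above the floor did. Counted by gene, 46.4% of all genes were below 0 in that comparison.

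NFKBIA, which encodes IkB alpha, the inhibitor that is rapidly resynthesised once NF-kB is active, read 1297, 1068 and 1409.7 on the control, LATS2 and LATS2N arrays. The order was LATS2, control, LATS2N, and neighbouring arrays were not apart beyond the probe set spread, at -0.28 and 0.12 against control. The ends of the order were apart by -0.40, which was 2.49 times the spread, and 4.37% of 1946 genes of like signal were as low. A second NFKBIA probe set was under the floor on all arrays.

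NFKBIE, which encodes IkB epsilon, had 1 probe set and read 322.9, 234.8 and 408.3 on the control, LATS2 and LATS2N arrays. The order of arrays was the same as for NFKBIA, and again neither construct was beyond the probe set spread from control, with log2 ratios of -0.46 and 0.34. Between the construct arrays the ratio was -0.80, a 1.74-fold difference at 3.10 times the spread.

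TNFAIP3, which encodes A20, a ubiquitin-editing enzyme that shuts off signalling from tumour necrosis factor and interleukin-1 receptors upstream of the IkB kinases, read 561.4, 352.6 and 755.6 on the control, LATS2 and LATS2N arrays. By this brightest probe set all 3 arrays were apart beyond the probe set spread, at -0.67 and 0.43 against control for LATS2 and LATS2N. A second probe set read 225.8, 166.9 and 261.7, in the same order and with smaller ratios of -0.44 and 0.21, neither beyond the spread. Between the construct arrays the brighter probe set gave -1.10, a 2.14-fold difference, and the dimmer one -0.65, not beyond the spread. Of 1609 genes of like signal, 0.311% were as low as the first.

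TNFAIP2 read 379.3, 181.9 and 540.0 on the control, LATS2 and LATS2N arrays. The LATS2 array was 2.08-fold below control, a log2 ratio of -1.06, and the LATS2N array was 1.42-fold above it at 0.51. The 2.97-fold difference between the construct arrays, a log2 ratio of -1.57, was the largest of the 9 genes by their brightest probe sets, and 0.375% of 1333 genes of like signal were as low. A second TNFAIP2 probe set read 40.1, 1.85 and 52.1, in the same order but at or under the floor on all arrays except LATS2N, so it gives no usable ratio against control for LATS2.

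**Figure D2:**
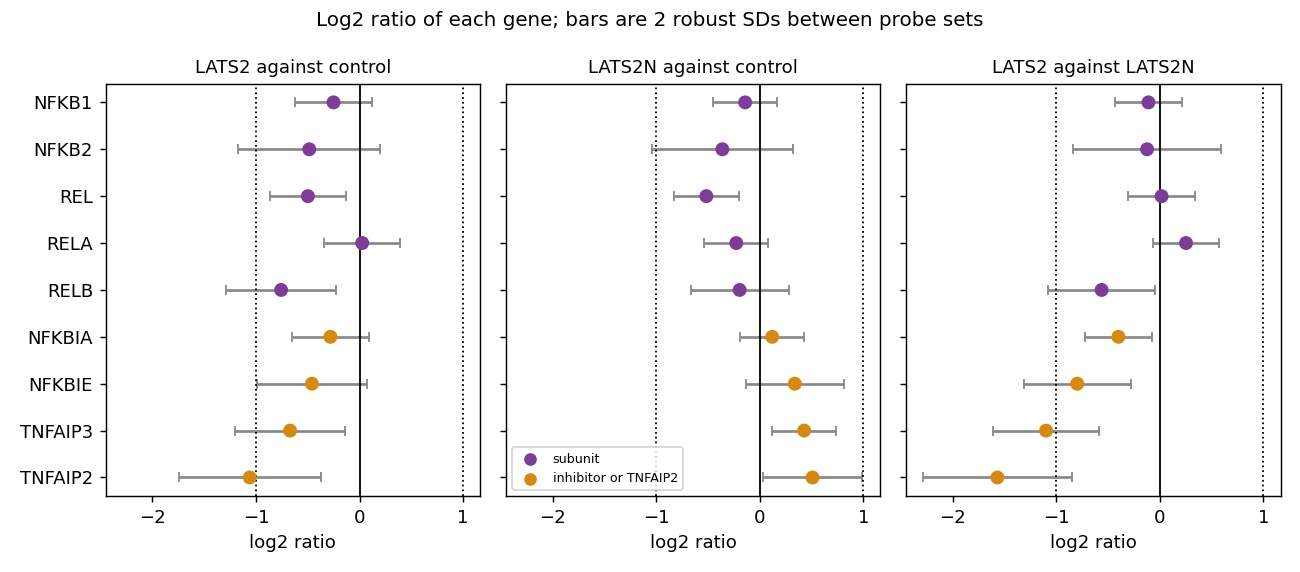
Log2 ratio of each of the 9 genes, by its brightest probe set, in the 3 comparisons. Bars are 2 robust SDs between probe sets on either side, and dotted lines mark a 2-fold difference. For LATS2 against control all points but RELA (0.03) lie below 0; for LATS2N against control the 5 subunits lie below 0 and the other 4 genes above; between the construct arrays TNFAIP3 (-1.10) and TNFAIP2 (-1.57) pass the 2-fold line.

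Every usable probe set was then set side by side, since a gene's brightest probe set is only 1 of its readings. Of the 15 probe sets above the floor on all 3 arrays, 14 were below control with full-length LATS2, the exception being the brighter one for RELA. Counted by gene, 45.2% of all genes were below 0 there, and no share over all probe sets was computed. For LATS2N against control, all 5 probe sets of the inhibitors and TNFAIP2 read higher, from 0.12 to 0.51, where 53.6% of all genes were above 0. The 10 subunit probe sets ran from -0.51 to 0.49, with a dim one each for NFKB2 and REL above 0. For LATS2 against LATS2N, the 5 probe sets of the first group ran from -1.57 to -0.40. Those of the subunits ran from -1.73 to 0.25, so the groups overlap. The -1.73 is from the dimmest REL probe set, just above the floor on the LATS2 array. Probe sets of 1 gene share its transcripts and are not replicates.

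**Figure D3:**
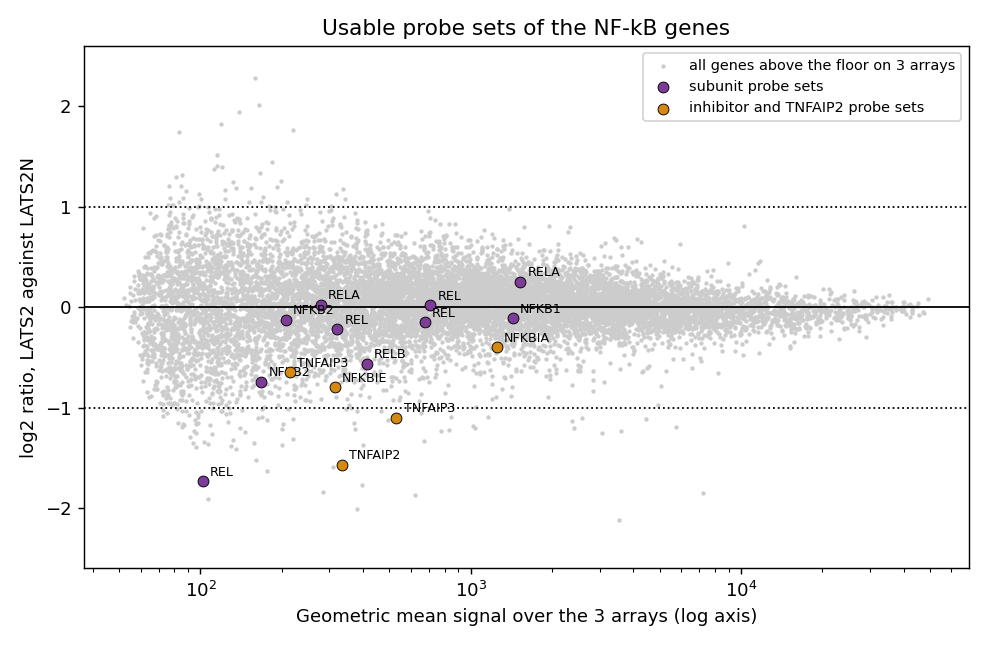
Log2 ratio of LATS2 against LATS2N for the 15 NF-kB probe sets above the floor on all arrays, plotted by geometric mean signal (log axis) over all genes in grey, with dotted lines at a 2-fold difference. The 5 probe sets of the inhibitors and TNFAIP2 all lie between -1.57 and -0.40. The dimmest REL probe set (-1.73), just above the floor on the LATS2 array, lies apart from the 3 brighter ones for REL.

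The rest of the pathway was read through 3 lists of other genes. Of 33 receptors, adaptors and kinases that act upstream of the subunits, 28 had a probe set with a single symbol and 27 reached the floor in each comparison. Against control their medians were 0.02 (LATS2) and -0.03 (LATS2N), and between the constructs 0.02, close to the medians over all genes. The only 2-fold call, 1 of 27 where 1.51% of all genes were called in either direction, was IRAK2, a kinase-like adaptor of interleukin-1 and Toll-like receptors, on the LATS2N array: it read 66.5, 115.9 and 215.9 on the control, LATS2 and LATS2N arrays. CHUK, which encodes the IKK alpha subunit of the IkB kinase, read 1897, 1176 and 1753, a log2 ratio of -0.69 on the LATS2 array. MYD88, an adaptor of the same receptors as IRAK2, read 1755, 1268 and 1772, and TAB3, an adaptor of the kinase TAK1, read 946.1, 1056 and 779.7. CHUK and MYD88 thus read lowest on the LATS2 array and TAB3 highest there.

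Other inhibitors of the pathway had medians near those of all genes. Of 18 listed, 17 had a probe set with a single symbol and 15 reached the floor, with medians against control of 0.08 (LATS2) and 0.00 (LATS2N) and of 0.11 between the constructs. PDLIM2, which promotes the nuclear degradation of RELA, was the 1 called of 15, lower on the LATS2 array where 0.842% of all genes were, and read 737.7, 351.3 and 572.7 on the control, LATS2 and LATS2N arrays. CYLD, a deubiquitinase that restrains the pathway, was highest on the LATS2 array, at 321.6 against 201.7 on control and 247.5 on LATS2N. TNIP1, a partner of A20, read 2563, 2212 and 2780, and NFKBIZ, a nuclear IkB protein, 464.9, 361.5 and 437.9. TNIP1 and NFKBIZ read lowest on the LATS2 array, and CYLD went the other way.

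Of 33 other textbook NF-kB targets 31 had a probe set with a single symbol, and many were already in the inflammatory list of the earlier analysis of these arrays, so they are not independent support. Of the 20 that reached the floor in LATS2 against control, 16 were below 0, where 45.2% of all genes were, with a median of -0.33, and 1, CCL20, was called lower, where 0.842% were. Of 23 in LATS2N against control, 18 were above 0, where 53.6% of all genes were, with a median of 0.25. The 1 call there, where 1.51% of all genes were called in either direction, was the cytokine gene IL1B, which read 149.7, 228.4 and 321.9 on the control, LATS2 and LATS2N arrays and so was above control on both constructs. Between the constructs 20 of 23 were below 0, where 47.7% of all genes were, with a median of -0.42. Of these, 5 were called lower, where 1.00% of all genes were. The 23 genes of both comparisons include CXCL5, CCL2 and LCN2, which reached the floor only on the LATS2N array, at 50.7, 59.9 and 74.0. The floor thus fixed their signs in both comparisons that use that array. The chemokine genes CXCL1, CXCL3 and CCL20 had log2 ratios between the constructs of -1.23, -1.23 and -1.20, CXCL8, another chemokine gene, -1.19, and PLAU, the urokinase gene, -1.91 at signals of 105.3, 55.4 and 208.4 on the control, LATS2 and LATS2N arrays. By these medians the other targets and the inhibitors with TNFAIP2 had the same sign in all 3 comparisons, the subunits had another sign than both on the LATS2N array, and the difference between the lists was not tested.

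**Figure D4:**
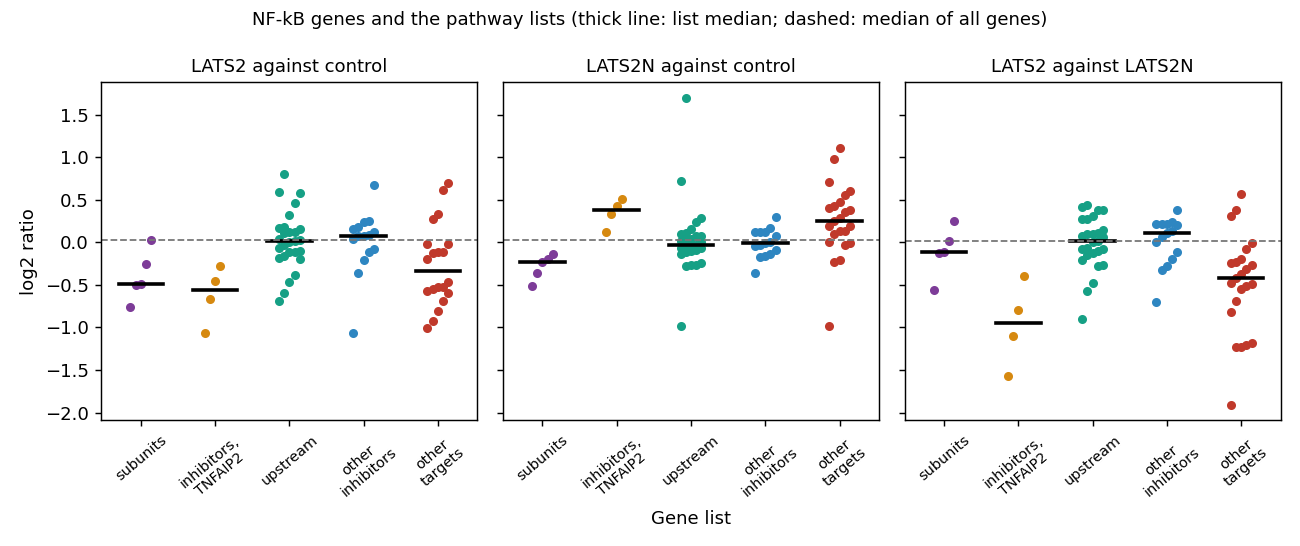
Log2 ratios in the 3 comparisons for the 5 subunits, the inhibitors with TNFAIP2, and the listed upstream genes, other inhibitors and other targets, each point 1 gene, with list medians as thick lines and the median of all genes dashed. Between the constructs the medians are -0.11, -0.95, 0.02, 0.11 and -0.42 in that order.

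Genes most like TNFAIP2 in their pattern over the 3 arrays were sought among 8890 genes with all signals of at least 200. The measure was the distance between pairs of log2 ratios against control. Among these, NDRG1, NINJ1, CXCL3, S100A3 and WNT10A were nearest, at distances of 0.17 to 0.30. TNFAIP2 itself read 181.9 on the LATS2 array, under that limit, so genes as dim as it there were not candidates. NDRG1, the nearest, read 759.7, 397.6 and 999.4 on the control, LATS2 and LATS2N arrays. Nearest to the median pair of the 9 genes were DR1, ATXN2, COQ2, AFG2B and HS3ST3B1, at 0.01 to 0.03. Likeness over 3 arrays rests on 2 ratios that share the control.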

How the data were processed

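Affymetrix probe set signals of 3 arrays were analysed, 1 each for control, LATS2 and LATS2N. The deposited values are intensities on a linear scale, made by the authors with MAS5 per the submitters' processing notes; its version and settings are not given in the sources used here, and detection calls were not analysed. Of 54675 probe sets, 41091 had 1 symbol in the platform annotation, 1801 had several and were left out, 11721 were not listed and 62 were controls. Symbols were updated through RefSeq (GRCh38.p14), which matched 41037.

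For each gene the probe set brightest on average (log2) was used. Log2 ratios, the floor (the median signal), the 2-fold call and the lists are as described in the report, computed with Python 3.11.15, numpy 2.4.6 and pandas 2.3.3; the code was tested on simulated data. Genes of like signal are those whose dimmer signal was within 0.5 log2 units. The named genes are the members, up to 4 genes per list with the largest ratio between the constructs and a signal of at least 200 on 1 array, and the 5 nearest in pattern; IL1B and CXCL8 were named after their values were seen. The members and lists were chosen with earlier results of these data known, and the probe set spread rule after the values were seen. Alternatives changed the floor, scaling, probe set choice and size of a call.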

Additional observations from a re-analysis of the deposited data

How the results depend on the processing

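The count of genes called in either direction in LATS2 against control was 1. It was 0 with a floor at the 75th percentile, 0 without probe sets ending in _s_at or _x_at, and 3 at 1.5-fold. Of all genes, 4.41% were lower at 1.5-fold and 10.3% were called in either direction. The other settings have no share over all genes here. For LATS2 against LATS2N the count was 2. It was 1 with the floor at the 75th percentile, 0 with the median over probe sets, and 0 without _s_at and _x_at probe sets. Leaving those out keeps 5 of the 9 genes and removes TNFAIP3 and TNFAIP2. The median ratio between the constructs was then -0.12. For LATS2N against control the count stayed 0 under all 8 alternatives, and the other medians moved by less than the probe set spread. Of 173 recomputed ratios of single genes, 166 moved by less than that spread, 7 moved by more, and none that was called turned its sign. Many of the 166 could not move. All signals behind the main ratios were above the floor, so a lower floor or none gave the same ratios. Genes left without _s_at and _x_at probe sets kept the probe set they had. Genes with 1 usable probe set kept their ratio under the median over probe sets. Wherever they had a value under the 7 alternatives, the inhibitors and TNFAIP2 read below control on the LATS2 array and above it on the LATS2N array. NFKBIE had none against control on the LATS2 array with the floor at the 75th percentile, and it was the only one of the 4 with a value without _s_at and _x_at probe sets. No paired analysis was possible because each group has 1 array. Without detection calls, the floor is no measure of background.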

Other observations

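Genes outside the NF-kB group whose promoter window holds the kB consensus did not stand apart as a whole. For LATS2 against LATS2N, 888 such genes had a median log2 ratio of 0.01, against 0.02 over 9786 genes without a match. A ratio of at least 1.5-fold lower was read for 6.31% of the first and 4.63% of the second. For LATS2 against control these shares were 5.14% and 4.02%, and for LATS2N against control 2.41% and 3.27%. No test exists for these differences, since each group has 1 array.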
